A study of Drosophila melanogaster with 59 samples.

Results

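The Red*-specific variants are the 210 positions at which genomic DNA of the Red* line of Drosophila melanogaster was listed with a sequence change that the lists set apart from the other lines. They were taken as every position of the 3 deposited Red*-specific lists, with 168 single-nucleotide changes (SNPs), 22 small deletions and 20 small insertions. The matching White*-specific lists hold 2425 positions, so that the Red* variants are 210 of 2635 in all. No position stood in both sets of lists.

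Red* and White* are lines derived from Fab2L and named for the colour of their eyes. All 3 are w1118 flies with the Fab2L insertion, and the line called w1118 lacks the insertion. Genomic DNA came from pools of 150 adult females, 4 days old, of Red*, White* and Fab2L in an Oregon-R background, in Oregon-R after 11 further generations, and in a Canton-S background. There were 3 libraries per line and background, 27 in all and 9 of Red*. Long RNA, depleted of ribosomal RNA, came from heads of 4-day-old adult males and from unfertilized eggs of Red*, White*, Fab2L and w1118 in Oregon-R, with 2 libraries per line and tissue, 16 of the 59 samples of the series. A genotype called 0/1 in a pool means that both bases were read among many flies, and cannot be told apart from a mixture of flies of different genotype.

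The Fab2L transgene joins a mini-white eye colour reporter to the Fab-7 region of the bithorax complex, which holds a Polycomb response element. Polycomb group proteins bind such elements and keep nearby genes silent through cell division, and trithorax group proteins counteract them. Lines that carry the same transgene can differ stably in eye colour, and lists of line-specific variants show which DNA differences accompany the lines.

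The long RNA libraries held 13.4 to 36.3 M recovered reads in genes in heads and 27.8 to 35.6 M in eggs. In heads the Red* libraries held 24.9 and 36.3 M reads, against 15.9 and 13.7 M in White* and 13.4 and 14.8 M in Fab2L, so that line and depth cannot be told apart there. The eye pigment transporter gene w, whose sequence the reporter carries, had 9.83 and 11.7 FPKM in Red* heads, against 2.36 and 2.28 FPKM in White* heads, 5.68 and 5.81 FPKM in Fab2L heads and 0.193 and 0.228 FPKM in w1118 heads. It was higher in Red* than in White* by 1.82 (SE 0.11) on the log2(FPKM + 1) scale, with limma's adjusted p of 0.000863, and higher than in Fab2L by 0.80 (SE 0.11), with an adjusted p of 0.019. The second of these calls was lost without any 1 of the 4 libraries compared, Red* 1 or 2 and Fab2L 1 or 2, with adjusted p of 0.0537 to 0.116. FPKM is the authors' number of reads per gene, scaled to the length of the gene and the size of the library. Markers fixed for heads summed to 9789 to 13354 FPKM in heads, mostly of ninaE, and 15.5 to 21.8 FPKM in eggs. Markers of eggs summed to 1888 to 2224 FPKM in eggs and 37.2 to 51.3 FPKM in heads. Of the egg markers stau was higher in heads, at 23.4 to 36.7 FPKM, than in eggs, at 9.77 to 11.1 FPKM. The head markers summed to 9789 to 10889 FPKM in Red* heads, against 12514 to 13354 FPKM in White* heads. The egg markers summed to 1888 to 2038 FPKM in Red* eggs, against 2188 to 2224 FPKM in White* eggs. The protocol given for RNA of eggs speaks of male heads, but the marker sums followed the titles.

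Most Red* variants lay on the left arm of chromosome 3. Of the 168 SNPs, 142 (84.5%) were on 3L, 25 (14.9%) on 3R and 1 (0.595%) on 2L, and none on X, 2R, 4 or Y. Of the White*-specific SNPs, 2377 of 2379 (99.9%) were on 3R. On 3R the Red* SNPs lay between dm6 positions 8758861 and 17940567, and the White* SNPs began at 18461552. The deletions were spread more widely than the SNPs, with 10 on 2L, 1 on 2R, 6 on 3L and 5 on X. The insertions had 3 on 2L, 11 on 3L, 3 on 3R and 3 on X. Neighbouring positions share flies, libraries and chromosomes, so that these counts are a description and the difference between the lists was not tested.

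The variants were grouped into runs. With gaps of up to 10 kb between neighbours, 129 of the 210 variants fell into 41 clusters of 2 or more, and 81 stood alone. With gaps of up to 100 kb, 3 runs of at least 10 variants together held 129 of the 210. No White* variant lay inside any of the 3, and the nearest was 250738 bp away.

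The longest run held 94 variants in 951 kb near the tip of 3L (dm6 chr3L:263252-1214143), namely 91 SNPs, 2 deletions and 1 insertion. The median gap between neighbours was 5510 bp, and the widest was 65251 bp. Of its 91 SNPs, 88 were called 0/1 in all 3 backgrounds. Their quality scores, on the caller's scale, ranged between 56 and 115 with a median of 101. Locations are the authors' own annotation, and 1 variant can carry several. In this run 18 variants were exonic and 31 were in promoters, and 40 genes were named. All 11 coding SNPs of the run were listed as synonymous, that is, as leaving the amino acid unchanged.

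The second run held 21 SNPs in 185 kb of 3R (chr3R:8758861-8943855), of which 19 were 0/1 in all backgrounds. It named 11 genes, and 11 of its 21 SNPs lay in introns or other parts of pyd, the orthologue of the ZO-1 junction protein. The third run held 14 SNPs in 268 kb of 3L (chr3L:8011893-8280375), 13 of them 0/1 in all backgrounds. It named nmo, Sarm (listed as Ect4), CG42590, CG42445, CG13675 and Dscam4. On the rest of 3L 51 variants were scattered with a median gap of 146848 bp.

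**Figure D1:**
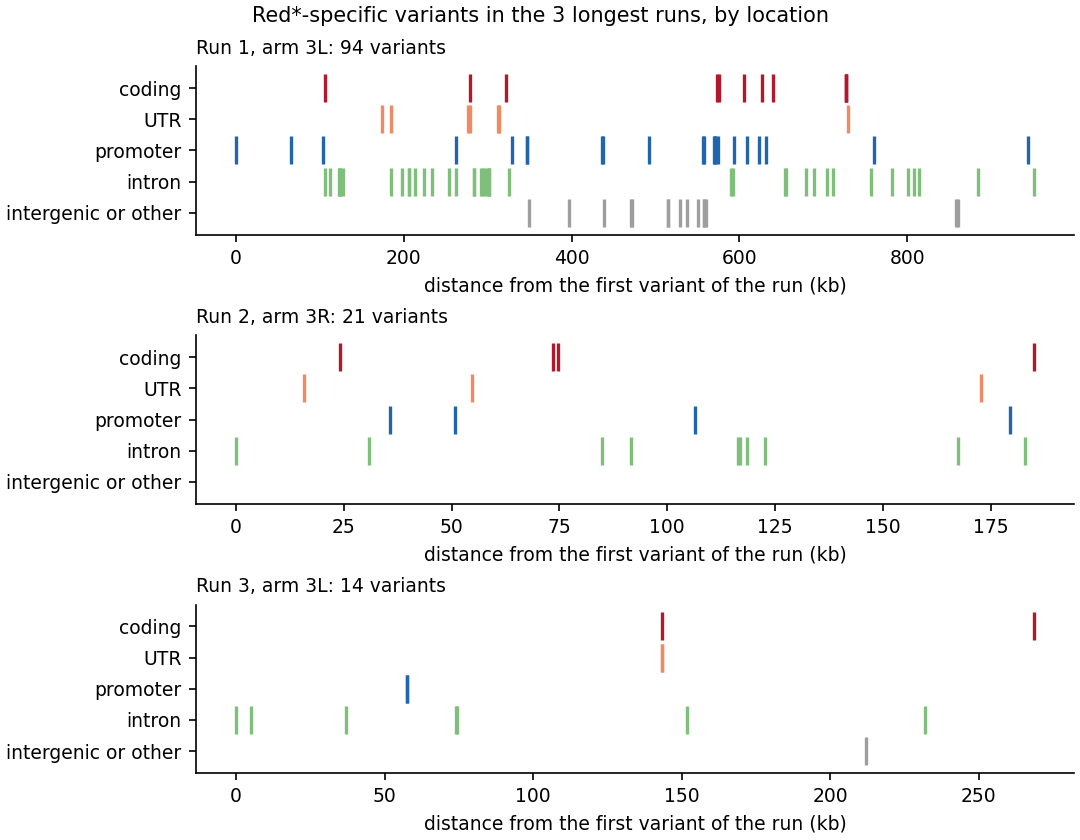
Positions of the Red*-specific variants in the 3 longest runs, as distance in kb from the first variant of each run (x axis), with a row for the location that ranks highest in the order coding, UTR, promoter, intron, other. Each tick is 1 variant. The run of 94 variants has coding and promoter ticks along most of its length, with 11 coding and 22 promoter ticks.

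With gaps of up to 10 kb, the cluster with the most variants, chr3L:813647-838519, held 12 SNPs in 24.9 kb, all 0/1 in every background. It covers CG13887, CG13901, CG42553, CG42554, the lncRNA CR43883 and Sf3b3, a subunit of the SF3b complex of the spliceosome, with 3 snoRNA genes that lie within Sf3b3. The next, chr3L:539977-565246, held 11 SNPs in 25.3 kb over klar, BORCS6, Cypl and Hipk. The other 3 of the 5 largest held 5, 5 and 4 variants at chr3L:575897-591885, chr3R:8926374-8943855 and chr3L:366457-375359.

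A few long genes took many of the hits. The KASH-domain gene klar, which acts in the positioning of nuclei, held 15 variants, of which 3 were in its 5′ UTR, 4 in promoters and 12 in introns. Hipk, the homeodomain-interacting protein kinase, held 12, of which 2 were in its 3′ UTR and 8 in introns. The junction gene pyd held 11, and 10 lay in Glut1, which codes for a glucose transporter. The tracheal transcription factor gene trh held 7, with 1 synonymous coding SNP and 6 intronic ones.

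Most SNPs had the same genotype call in the 3 backgrounds. Of the 168 SNPs, 134 (79.8%) were 0/1 in Oregon-R, in Oregon-R after 11 generations and in Canton-S. No SNP of the Red* or White* lists was called 0/0 in any background. The rule for entering the lists is not given, so that presence in all 3 backgrounds may be a condition of the lists and is not a result. Calls of 1/1 were made at 17 SNPs (10.1%) in Oregon-R, at 8 (4.76%) after 11 generations and at 23 (13.7%) in Canton-S. Among White* SNPs the shares of 1/1 calls were 17.1% in Oregon-R, 14.9% after 11 generations and 4.62% in Canton-S. In Red* 11 SNPs were 1/1 in Canton-S alone, and 9 were 1/1 in Oregon-R and in Canton-S but 0/1 after 11 generations. Many of the 1/1 calls lay on the middle of 3L. In the stretch chr3L:12400554-15488372, chosen after the values were seen, 13 of 21 SNPs were 1/1 in Oregon-R, 0 after 11 generations and 12 in Canton-S. Reads per SNP are not in the lists, so that the precision of each call is unknown.

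**Figure D2:**
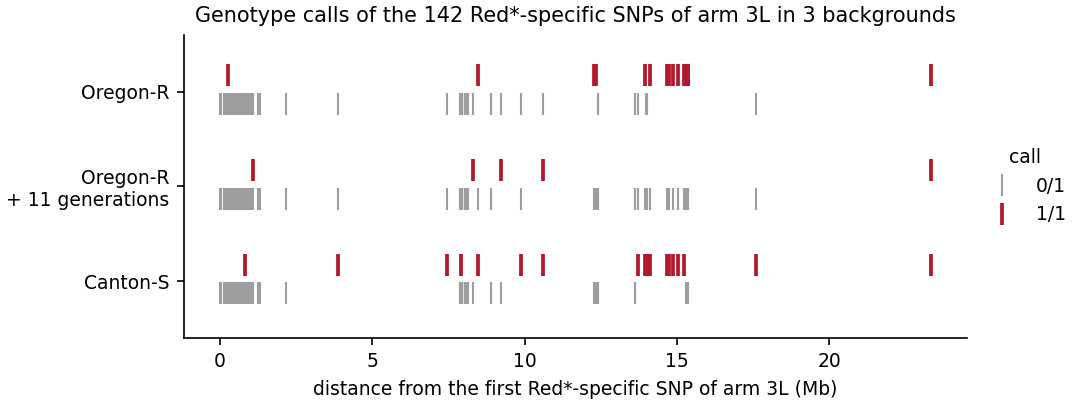
Genotype calls of the 142 Red*-specific SNPs of 3L along the arm (x axis, Mb from the first SNP) in the 3 backgrounds (rows). Grey ticks are 0/1 and red ticks 1/1 calls. The calls at the left end are nearly all 0/1 in the 3 backgrounds, and the red ticks between 12.3 and 15.4 Mb are in the Oregon-R and Canton-S rows. The row of Oregon-R after 11 generations has red ticks at 1.09, 8.30, 9.22, 10.6 and 23.3 Mb.

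By genotype over all backgrounds the authors listed 200 variants as heterozygous and 10 as homozygous. The only homozygous SNP was C23460005G, where the letters give the bases in the order of the deposited identifier and the number the dm6 position on 3L. It was intergenic, with a quality of 17.1, 1 of 6 SNPs below 50. The other 5 below 50 were C22102475G on 2L, A1438410G, A8086063T and T17698302A on 3L and A17940567G on 3R, with scores of 4.77, 3.54, 12.3, 38 and 27. The single SNP on 2L and the SNP of 3R nearest the Hox gene Abd-B were thus among those of lowest score. The median was 100 over the Red* SNPs and 80 over the White* SNPs. Exchanges of A with G or C with T made up 92 of the 168 Red* SNPs (54.8%) and 54.3% of the White* SNPs.

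By location, 44 of the 210 variants (21%) were exonic, 63 (30%) were in promoters and 87 (41.4%) were in at least 1 of these. Introns held 117 (55.7%), and 55 (26.2%) were listed as intergenic. Of the White* variants, 23.8% were exonic, 28.7% in promoters, 39.1% in introns and 38.2% intergenic. Coding sequence held 25 Red* variants (11.9%), a 5′ UTR 14 (6.67%) and a 3′ UTR 12 (5.71%).

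Coding SNPs that change the amino acid were few. Of 23 coding SNPs 19 (82.6%) were synonymous and 4 (17.4%) nonsynonymous, and none introduced a stop codon. Among 374 coding SNPs of White*, 105 (28.1%) were nonsynonymous and 1 (0.267%) was nonsense. The 4 were T8597038C in CG43078, T12524506G and G12524529A in ver, and C8833551A in pyd, the last on 3R and the others on 3L. The gene ver codes for verrocchio, a protein that caps telomeres, and both of its SNPs also lie in the promoter of Gcn5, the histone acetyltransferase of the SAGA complex. T8597038C was called 1/1 in Oregon-R and Canton-S and 0/1 in Oregon-R after 11 generations, and the other 3 were 0/1 in all backgrounds. The quality scores were 61.5 for T8597038C, 77 and 91 for the SNPs of ver and 92 for that of pyd.

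None of the 23 genes listed for the Polycomb group, the 23 for proteins that bind Polycomb response elements or insulators, the 8 Hox genes and the 25 eye pigment genes had a Red* variant in an exon, promoter or intron. Of the 24 trithorax group genes, sls had an insertion in an intron. The variant nearest to w lay 1.82 Mb from it and the variant nearest to Abd-B 0.968 Mb, in an intron of cpo.

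The small deletions mostly rested on few reads. For deletions and insertions the lists give, per background, the reads with and without the change. The columns name the background and not the library, and are read here as the Red* libraries pooled. Of the 22 deletions, 17 had exactly 2 reads with the change in at least 1 background, 11 in at least 2 and 3 in all. The share of reads with the deletion was under 10% in at least 1 background at 12 sites and in all at 4. Its median over the 22 sites was 21% in Oregon-R, 19.4% after 11 generations and 22.4% in Canton-S. Sizes ran from 2 to 10 bp, with 8 deletions of 2 bp and 9 of 3 bp. The insertions had higher shares, with medians of 80.8% in Oregon-R, 77% after 11 generations and 72% in Canton-S, and 3 of the 20 rested on 2 reads in at least 1 background.

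Among the deletions, the site in an intron of klar at chr3L:525683-525684 was the only one listed as homozygous. The site is also listed in the promoters of the lncRNA genes CR45117 and CR45118. It had 21 of 25 reads with the change in Oregon-R (84%, Wilson 95% interval 65.3 to 93.6), 48 of 52 after 11 generations (92.3%, 81.8 to 97) and 62 of 66 in Canton-S (93.9%, 85.4 to 97.6). The shares were high in all 3 backgrounds, and the intervals overlapped. It lies inside the longest run, where the SNPs around it were 0/1.

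The 8 homozygous insertions had at least 77.4% of reads with the change in every background. The insertion in coding sequence of CG42353 on X (16098226) had 22 of 22 reads in Oregon-R, 22 of 22 after 11 generations and 5 of 5 in Canton-S. Its lower Wilson 95% bounds were 85.1%, 85.1% and 56.6%. The length of an insertion is not analysed here. Of the other 7, those in an intron of bab1, in an intron of Dbx and in an intron of sn lay in named genes, and the remaining ones were intergenic. The insertion in Dbx is also listed in the promoter of the lncRNA gene CR45826. Of the intergenic ones, that at chr3L:15164407 is also listed in the promoter of CG7011. The one at chr3R:12032236 is also listed in the promoters of CG31358, CG42504, CG42505 and ssp5.

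Exonic deletions and insertions were 8. The 7 bp deletion in coding sequence of CG31710, at chr2L:9703112-9703118, had a share of 2.99% in Oregon-R, 3.62% after 11 generations and 33.3% in Canton-S. The 3 bp deletion in the 3′ UTR of Bacc had 13.3% in Oregon-R, 8% after 11 generations and 66.7% in Canton-S. In both, Canton-S stood above the other backgrounds. The deletions in the 5′ UTR of Acer, an angiotensin-converting enzyme relative, of sax, a type I BMP receptor, and in the 3′ UTR of meso18E had 1.36% to 6.9% of reads in every background. For Acer these were 2 reads of 71 in Oregon-R, 2 of 131 after 11 generations and 2 of 147 in Canton-S.

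The insertion in the 5′ UTR of soti, an inhibitor of Cullin-3 in spermatids, differed most between backgrounds among the exonic insertions, with 80.6% of reads in Oregon-R, 38.5% after 11 generations and 15.8% in Canton-S. The insertion in the 5′ UTR of Egfrap (listed as CG33993) had 58.7% in Oregon-R, 76.1% after 11 generations and 34.1% in Canton-S. The reads of White* and Fab2L at these sites are not analysed here, so that no test between lines could be made.

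**Figure D3:**
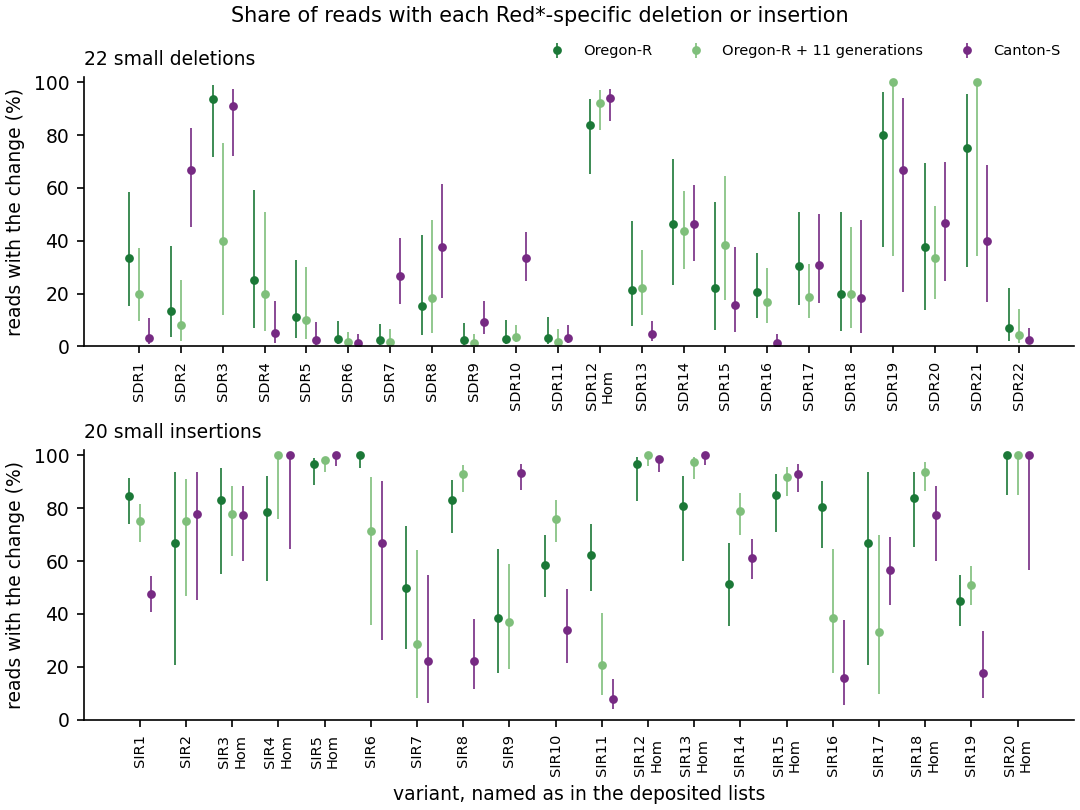
Share of reads (y axis, %) with each Red*-specific small deletion (top) and insertion (bottom) in Oregon-R, Oregon-R after 11 generations and Canton-S, with Wilson 95% intervals that cover counting error only. Sites are named as in the deposited lists, and Hom marks those listed as homozygous. Most deletions sit below 50% and the 9 sites marked Hom sit above 75% in each background.

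The lists named 127 genes, all matched to an identifier. An exonic or promoter variant hit 88 of them, 34 in an exon and 54 in a promoter only, and 39 had intronic hits only. None of the 88 was among the 337 genes so hit in the White* lists. FPKM values were used for 86, and btl and CG9821 are not analysed here. A gene was tested in a tissue where 2 or more of its 8 libraries had an FPKM above 1, which held for 67 of the 86 in heads and for 41 in eggs. In heads 4 of the 86 were listed at 0 in all 8 libraries and in eggs 13, and the median of the mean FPKM was 6.83 in heads and 0.311 in eggs.

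In heads few of the hit genes differed between lines. Of 67 tested, 2 fell in Red* against White* (2.99%) and none rose, with limma and Benjamini-Hochberg adjustment over all genes. Of all 11119 genes tested 3.87% were called, 0.845% higher and 3.02% lower in Red*, so that the share was near that of genes at large. Against Fab2L 3 of 67 fell (4.48%) and none rose, beside 2.25% of all genes, 0.378% higher and 1.87% lower. The median log2 difference of the hit genes was −0.05 against White* and 0.00 against Fab2L, beside 0.00 and 0.01 over all genes. The libraries did not overlap at 34 of the 67 against White* and at 38 against Fab2L, beside 54.7% and 54% of all genes. None of the 27 genes with an exonic variant was called by limma in either comparison, with 5 at an unadjusted p under 0.05 against White* and 6 against Fab2L. edgeR, on reads recovered from the FPKM values, called 0 of them against White* and 1 against Fab2L, Msh6. No share of all genes stands beside the unadjusted counts or the edgeR call, so that neither is read as a result.

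CG13318, a gene of the second run with the SNP C8774557T on 3R in its promoter, had 11.9 and 11.3 FPKM in Red* heads, against 24.2 and 24.3 FPKM in White* heads, 24.4 and 22.4 FPKM in Fab2L heads and 12.2 and 10.7 FPKM in w1118 heads. Red* and w1118 were low and White* and Fab2L high, with no overlap. The Red* mean was 47.8% of the White* mean and 49.6% of the Fab2L mean. It fell by 1.00 (SE 0.09) against White* on the log2(FPKM + 1) scale, with limma's adjusted p of 0.00444, and by 0.96 (SE 0.09) against Fab2L, with an adjusted p of 0.00617. Without White* library 1 or 2 the adjusted p against White* was 0.052 and 0.0519, in a range of 0.00208 to 0.052 over the alternatives. Its SNP was 1/1 in Oregon-R and after 11 generations and 0/1 in Canton-S, and lies also in the 3′ UTR of Pif1A and Pif1B.

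The gene mwh, which limits the number of hairs on wing cells, has G1207062A on 3L in its promoter. It had 8.8 and 8.24 FPKM in Red* heads, against 13.2 and 12.3 FPKM in White* heads, 12.6 and 13.9 FPKM in Fab2L heads and 9.39 and 8.58 FPKM in w1118 heads. Again Red* and w1118 were low and did not overlap White* or Fab2L. It fell by 0.53 (SE 0.09) against White*, with limma's adjusted p of 0.03, and by 0.58 (SE 0.09) against Fab2L, with an adjusted p of 0.028. Both calls were lost without any 1 of the libraries compared, Red* 1 or 2, White* 1 or 2 and Fab2L 1 or 2, with adjusted p of 0.0623 to 0.147 against White* and 0.0606 to 0.156 against Fab2L. They were also lost without the filter on low values, with adjusted p of 0.0566 against White* and 0.0514 against Fab2L, and with only the 2 lines compared, with 0.0733 and 0.0833. Over all alternatives the adjusted p ranged between 0.0127 and 0.147 against White* and between 0.0105 and 0.156 against Fab2L.

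The gene snoRNA:CG32479-a lies within Usp10, a ubiquitin protease gene, whose synonymous coding SNP G890638A on 3L is listed as its promoter variant. It had 37.9 and 37.8 FPKM in Red* heads, against 44.4 and 46.5 FPKM in White* heads, 84.1 and 70.5 FPKM in Fab2L heads and 10.9 and 12.5 FPKM in w1118 heads. In Red* eggs it had 3.9 and 3.45 FPKM, against 9.79 and 12.4 FPKM in White* eggs, 11.4 and 8.03 FPKM in Fab2L eggs and 2.41 and 1.04 FPKM in w1118 eggs. The Red* libraries lay below those of White* and Fab2L and above those of w1118 in both tissues. In heads it fell by 1.01 (SE 0.11) against Fab2L, with limma's adjusted p of 0.00663, and the difference of −0.26 against White* had an adjusted p of 0.202. In eggs it fell by 1.36 (SE 0.24) against White* and by 1.18 (SE 0.24) against Fab2L, with adjusted p of 0.00417 and 0.015. The call against Fab2L in eggs was lost without Red* library 2 or Fab2L library 1, with adjusted p of up to 0.0669 and a range of 0.0104 to 0.0669 over the alternatives. The long RNA libraries start at 200 nt and the strand of counting is not stated, so that reads of the host gene cannot be told apart from those of the snoRNA gene. Usp10 itself had 12.6 and 12.2 FPKM in Red* heads, against 13.4 and 12.5 FPKM in White* heads, with limma's adjusted p of 0.685.

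The genes with the most variants were not called in heads. In klar the level was 21.6 and 18.6 FPKM in Red* heads, against 19 and 17.8 FPKM in White* heads, and in eggs 8.22 and 8.38 FPKM in Red*, against 7.97 and 7.97 FPKM in White*. Hipk had 34.9 and 28.2 FPKM in Red* heads, against 29.2 and 26.7 FPKM in White* heads. The junction gene pyd, with its nonsynonymous SNP, had 18.9 and 17.4 FPKM in Red* heads, against 18.8 and 16.2 FPKM in White* heads. The libraries of Red* and White* overlapped for all 3 in heads. limma called klar, Hipk and pyd in none of the 4 comparisons and trh in neither of the 2 in heads, while edgeR called pyd in eggs against Fab2L. CG43078, with a nonsynonymous SNP, had 38.3 and 34.1 FPKM in Red* heads, against 39.5 and 35.7 FPKM in White* heads, with limma's adjusted p of 0.805.

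Some markers of other cell types differed between lines in some comparisons. Over 11 markers of muscle, fat body, gut and germline the summed FPKM was 311 to 364 in Red* heads, against 292 to 310 in White* heads, 289 to 316 in Fab2L heads and 615 to 868 in w1118 heads. Of 10 tested, 1 rose in Red* against White*, the gut mucin gene Muc68D, beside 3.87% of all genes called. It had 45.4 and 12.4 FPKM in Red* heads, against 0.164 and 1.1 FPKM in White* heads. Against Fab2L Muc68D rose and the fat body gene fit fell, beside 2.25% of all genes called. These calls were lost without some of the libraries compared, that of Muc68D without Red* library 1 or either White* library against White* (limma's adjusted p of 0.0189 to 0.135) and without Red* library 1 or either Fab2L library against Fab2L (0.0267 to 0.178), and that of fit without either Fab2L library (up to 0.0662). In eggs the sums were 112 to 116 FPKM in Red*, against 114 to 119 FPKM in White* and 120 to 121 FPKM in Fab2L. The egg sums were mostly of the germline genes twe and bam. There 3 of 6 rose against White*, the yolk protein genes Yp1 and Yp2 and fit, beside 44.2% of all genes called. Against Fab2L 5 of 6 were called, beside 23.7% of all genes. Of these Yp1, Yp2 and fit rose, and bam and TpnC4 fell. Yp1 had 1.13 and 1.51 FPKM in Red* eggs and at most 0.411 FPKM in the other lines. For fit the values were 1.34 and 1.47 FPKM, and at most 0.469 FPKM. In both comparisons Yp1 and fit passed the filter only through Red*, the line where they were high. Their calls are therefore no support for a rise. The calls of bam and TpnC4 were lost without some libraries, with limma's adjusted p of up to 0.0905 and 0.157. The part of other cell types in the results was not tested. In such bulk samples fewer cells of a type and less RNA per cell cannot be told apart.

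**Figure D4:**
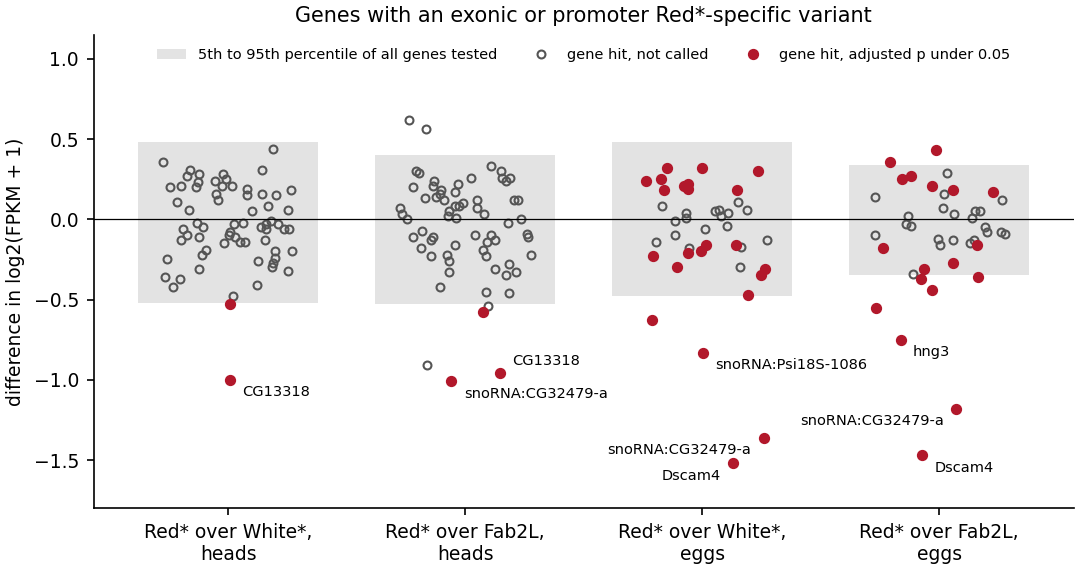
Difference in log2(FPKM + 1) (y axis) of each tested gene with an exonic or promoter Red*-specific variant in 4 comparisons. Filled points are genes with limma's adjusted p under 0.05, open points the others, and grey boxes span the 5th to 95th percentile of all genes tested. In heads the called genes are 2 and 3, all below 0, and in eggs they are 23 and 18, with Dscam4 lowest at −1.52 and −1.47.

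In eggs calls were frequent among all genes. Of 41 hit genes tested, 23 were called in Red* against White* (56.1%), 10 higher and 13 lower, beside 44.2% of all 6682 genes tested, 21.5% higher and 22.7% lower. Against Fab2L 18 were called (43.9%), 7 higher and 11 lower, beside 23.7% of all genes, 12.6% higher and 11.1% lower. The median log2 difference was −0.04 against White* and −0.08 against Fab2L, beside −0.02 and −0.01 over all genes. With an exonic variant 8 of 17 were called in each comparison, and with a promoter variant only 15 of 24 against White* and 10 of 24 against Fab2L. Red* libraries enter both comparisons, so that these are not independent of each other.

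Dscam4, a member of the Dscam family of cell adhesion molecules with the synonymous SNP A8280375C at the end of the third run on 3L, had the largest difference in eggs among the hit genes in both comparisons. It had 0.499 and 0.489 FPKM in Red* eggs, against 3.29 and 3.28 FPKM in White* eggs, 3.21 and 3.05 FPKM in Fab2L eggs and 0.0267 and 0.0185 FPKM in w1118 eggs. Red* lay between w1118 and the other lines with no overlap, at 15% of the White* mean and 15.8% of the Fab2L mean. It fell by 1.52 (SE 0.07) against White* and by 1.47 (SE 0.07) against Fab2L, with limma's adjusted p of 1.93e-05 and 3.66e-05. In heads it had 22.2 and 19.1 FPKM in Red*, against 22 and 19.8 FPKM in White*, a log2 difference of −0.02. The difference between heads and eggs was 1.50, with limma's adjusted p of 2.35e-05, where 37.3% of all genes tested were called.

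All 3 hit genes of the third run that were tested in eggs were lower in Red*. CG42445, with the coding SNP A8155092G and the 5′ UTR SNPs G8155228T and T8155241C, had 39.8 and 42.2 FPKM in Red* eggs, against 62 and 65.9 FPKM in White* eggs, 54.4 and 57.9 FPKM in Fab2L eggs and 46.2 and 47 FPKM in w1118 eggs. The Red* libraries were the lowest of the 8. It fell by 0.63 (SE 0.06) against White* and by 0.44 (SE 0.06) against Fab2L, with limma's adjusted p of 0.000434 and 0.00259. Sarm, a TIR-domain protein of axon degeneration with 2 promoter SNPs, had 3.67 and 3.33 FPKM in Red* eggs, against 5.31 and 5.12 FPKM in White* eggs, 5.81 and 5.35 FPKM in Fab2L eggs and 3.72 and 4.19 FPKM in w1118 eggs. It fell by 0.47 (SE 0.07) against White* and by 0.55 (SE 0.07) against Fab2L, with limma's adjusted p of 0.00287 and 0.00367. Of all 23 genes tested that lie whole within the run, 8 were called in eggs against White* (34.8%), 7 of them lower. Of all genes tested 44.2% were called there, 22.7% lower. Against Fab2L 7 of the 23 were called (30.4%), 6 of them lower, beside 23.7% of all genes tested, 11.1% lower.

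In the longest run 10 of 19 hit genes were called in eggs against White* (52.6%), 5 higher and 5 lower, beside 44.2% of all genes tested. The gene hng3, with T755348C in its promoter, had 16.5 and 17 FPKM in Red* eggs, against 20.2 and 18.5 FPKM in White* eggs, 28.5 and 29.4 FPKM in Fab2L eggs and 14.9 and 14.2 FPKM in w1118 eggs. Fab2L stood above the other lines. It fell by 0.75 (SE 0.06) against Fab2L and by 0.20 (SE 0.06) against White*, with limma's adjusted p of 0.000218 and 0.0247. The call against White* was lost without Red* library 1, Red* library 2 or White* library 1, with adjusted p of up to 0.142 and a range of 0.0108 to 0.142 over the alternatives. Cypl, a cyclophilin-like gene with 1 coding and 1 3′ UTR SNP in the cluster chr3L:539977-565246, had 39.9 and 38 FPKM in Red* eggs, against 31.5 and 30.3 FPKM in White* eggs and 37 and 40.2 FPKM in Fab2L eggs. It rose by 0.32 (SE 0.06) against White*, with limma's adjusted p of 0.00398, and was not called against Fab2L, with an adjusted p of 0.883.

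In the cluster chr3L:813647-838519, eggs gave calls of both signs against White*. Sf3b3, with 2 SNPs in its promoter, had 33.5 and 32.7 FPKM in Red* eggs, against 29.8 and 28.3 FPKM in White* eggs and 28.6 and 29.9 FPKM in Fab2L eggs. It rose by 0.18 against White*, with limma's adjusted p of 0.0183, and by 0.17 against Fab2L, with an adjusted p of 0.0384. CG13887, with 1 synonymous coding SNP and 2 promoter SNPs, had 79.6 and 79.7 FPKM in Red* eggs, against 89.1 and 88.8 FPKM in White* eggs, and fell by 0.16, with limma's adjusted p of 0.0276. CG42553, with 3 promoter SNPs, had 30.8 and 30.5 FPKM in Red* eggs, against 35.5 and 36.8 FPKM in White* eggs, and fell by 0.23, with an adjusted p of 0.0315. Its neighbours CG42554 and CG13901 were not called, with 53 and 49.9 FPKM in Red* eggs, against 54.4 and 56.4 FPKM in White* eggs, for CG42554. These differences were small, and each call was lost without 1 or more libraries. That of Sf3b3 against White* was lost without Red* library 1 or White* library 2 (range 0.00732 to 0.132 over the alternatives) and that against Fab2L without any 1 of the libraries compared (0.0201 to 0.15). Those of CG13887 (0.0228 to 0.311) and CG42553 (0.0121 to 0.156) were lost without any 1 of the Red* and White* libraries.

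One of the snoRNA genes within Sf3b3, snoRNA:Psi18S-1086, had 12.7 and 7.38 FPKM in Red* eggs, against 18.5 and 17.5 FPKM in White* eggs and 12.3 and 12.7 FPKM in Fab2L eggs. It fell by 0.83 (SE 0.22) against White*, with limma's adjusted p of 0.018, and the call was lost without Red* library 2, White* library 1 or White* library 2 (range 0.00175 to 0.0786 over the alternatives). As for snoRNA:CG32479-a, reads of the host gene cannot be told apart from those of the snoRNA gene.

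Elsewhere in the longest run MED14, a subunit of the Mediator complex with T591885G in its promoter, had 13.5 and 12.8 FPKM in Red* eggs, against 11.6 and 10.4 FPKM in White* eggs and 11.5 and 11 FPKM in Fab2L eggs. It rose by 0.24 against White*, with limma's adjusted p of 0.0177, and by 0.21 against Fab2L, with an adjusted p of 0.0471. The calls were lost without Red* library 1 or White* library 2 against White* (range 0.00649 to 0.125 over the alternatives) and without any 1 of the libraries against Fab2L (0.0234 to 0.195). BORCS6 (listed as CG17180), with a SNP in its promoter, had 7.32 and 8.59 FPKM in Red* eggs, against 6.78 and 5.8 FPKM in White* eggs, and rose by 0.30, with limma's adjusted p of 0.027. Its call was lost without Red* library 2 or White* library 2 (range 0.0117 to 0.175 over the alternatives).

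For Glut1 the difference between Red* and White* was not the same in the tissues, with an interaction of 0.47 and limma's adjusted p of 0.0173. It had 5.95 and 5.5 FPKM in Red* eggs, against 6.98 and 6.29 FPKM in White* eggs and 7.45 and 7.89 FPKM in Fab2L eggs. In heads it had 23.6 and 20 FPKM in Red*, against 18.5 and 16.9 FPKM in White*. The level in Red* was the lower one in eggs and the higher one in heads, without overlap with White*. It fell by 0.37 in eggs against Fab2L, with limma's adjusted p of 0.012, a call lost without Red* library 2 or Fab2L library 2 (range 0.00317 to 0.0725 over the alternatives). The difference against White* in eggs was −0.18, with an adjusted p of 0.063, and in heads 0.28, with an adjusted p of 0.202.

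On the middle of 3L the neighbours ver and Gcn5, which share 2 SNPs, were both higher in Red* eggs. Gcn5 had 22.1 and 22 FPKM in Red* eggs, against 17.5 and 17.5 FPKM in White* eggs, 18.6 and 18.2 FPKM in Fab2L eggs and 26.7 and 27.5 FPKM in w1118 eggs. It rose by 0.32 (SE 0.04) against White* and by 0.25 (SE 0.04) against Fab2L, with limma's adjusted p of 0.00159 and 0.00933. Without Fab2L library 2 the adjusted p against Fab2L was 0.06 (range 0.00447 to 0.06 over the alternatives). The gene ver had 11.5 and 10.5 FPKM in Red* eggs, against 9.51 and 9.52 FPKM in White* eggs, 7.95 and 8.77 FPKM in Fab2L eggs and 13.1 and 13.5 FPKM in w1118 eggs. It rose by 0.36 against Fab2L, with limma's adjusted p of 0.00994, and by 0.19 against White*, with an adjusted p of 0.0414. The call against White* was lost without Red* library 1, White* library 1 or White* library 2 and under edgeR (range 0.0251 to 0.22 over the alternatives).

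T14803537G, called 1/1 in Oregon-R and Canton-S, is listed in the promoters of NHP2, gnu and CG17839. NHP2, a protein of H/ACA snoRNPs, had 104 and 104 FPKM in Red* eggs, against 120 and 122 FPKM in White* eggs, 128 and 131 FPKM in Fab2L eggs and 127 and 128 FPKM in w1118 eggs. It fell by 0.21 against White* and by 0.31 against Fab2L, with limma's adjusted p of 0.00681 and 0.00403, and the call against White* was lost without White* library 2 (adjusted p of 0.0634, range 0.00389 to 0.0634 over the alternatives). Its neighbour gnu, an activator of the PNG kinase of the egg, had 80.7 and 92.2 FPKM in Red* eggs, against 79.3 and 85.7 FPKM in White* eggs, with an adjusted p of 0.655. CG17839 was expressed in heads, at 71.8 and 74.3 FPKM in Red*, against 87.1 and 85.5 FPKM in White*, with an adjusted p of 0.159. The 3 genes beside this SNP thus gave 1 called gene.

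Other hit genes of the middle of 3L gave calls of either sign in eggs. CG32104, with G12400554A, had 12.3 and 11.9 FPKM in Red* eggs, against 9.7 and 10.3 FPKM in White* eggs and 8.26 and 9.16 FPKM in Fab2L eggs. It rose by 0.43 against Fab2L, with limma's adjusted p of 0.00494, and by 0.25 against White*, with an adjusted p of 0.016. The call against White* was lost without Red* library 1, White* library 1 or White* library 2 (range 0.00639 to 0.0924 over the alternatives). The amino acid transporter gene mnd, with G14984729T, had 30.4 and 26.5 FPKM in Red* eggs, against 35.1 and 35.9 FPKM in White* eggs, 36.8 and 36.8 FPKM in Fab2L eggs and 26.4 and 29.4 FPKM in w1118 eggs. It fell by 0.31 against White* and by 0.36 against Fab2L, with limma's adjusted p of 0.0119 and 0.0148. These calls were lost without Red* library 2 or White* library 2 (range 0.00412 to 0.077 over the alternatives) and without Red* library 2 or either Fab2L library (0.0047 to 0.0733). The mismatch repair gene Msh6, with the synonymous SNP A15157140G, had 3.13 and 2.96 FPKM in Red* heads, against 2.02 and 1.95 FPKM in White* heads, 2 and 1.31 FPKM in Fab2L heads and 4.37 and 4.14 FPKM in w1118 heads. Its Red* libraries lay above those of White* and Fab2L, with limma's adjusted p of 0.124 and 0.0746.

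In the second run ScsbetaA (listed as skap), a subunit of succinyl-CoA synthetase, had 115 and 114 FPKM in Red* eggs, against 140 and 142 FPKM in White* eggs and 134 and 143 FPKM in Fab2L eggs. It fell by 0.30 against White* and by 0.27 against Fab2L, with limma's adjusted p of 0.00327 and 0.0114. The call against Fab2L was lost without Fab2L library 2 (range 0.00798 to 0.0723 over the alternatives). Bacc, the gene with the 3′ UTR deletion on 2L, had 14.3 and 14.2 FPKM in Red* eggs, against 18.6 and 18.4 FPKM in White* eggs, and in heads 108 and 103 FPKM in Red*, against 81.3 and 94.6 FPKM in White*. It fell by 0.35 in eggs against White*, with limma's adjusted p of 0.00185, and the difference of 0.27 in heads had an adjusted p of 0.246.

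Of the other genes with an exonic deletion or insertion, Acer had 16.1 and 16.7 FPKM in Red* eggs, against 18 and 18 FPKM in White* eggs and 18.8 and 18.6 FPKM in Fab2L eggs. It fell by 0.18 against Fab2L, with limma's adjusted p of 0.0333, a call lost without any 1 of the Red* and Fab2L libraries (range 0.0233 to 0.111 over the alternatives). The receptor gene sax had 39.6 and 37.8 FPKM in Red* eggs, against 43.6 and 42.9 FPKM in White* eggs, and fell by 0.16, with an adjusted p of 0.0492 that was lost without any 1 of the Red* and White* libraries (0.0287 to 0.182). In heads CG31710, with the coding deletion, had 10.6 and 8.05 FPKM in Red*, against 7.76 and 8.76 FPKM in White*, with overlap. Neither meso18E, with 2.08 and 2.36 FPKM in Red* heads, against 3.48 and 3.06 FPKM in White* heads, nor Egfrap, with 2.77 and 3.42 FPKM in Red* heads, against 4.07 and 3.81 FPKM in White* heads, was called, with limma's adjusted p of 0.116 and 0.229.

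Of the 10 genes with an exonic or promoter hit by a homozygous variant, CG42353, CG31358, CG42504 and CG42505 were listed at 0 in all 16 libraries, and ssp5, CG42354 and the lncRNA CR45826 stayed below FPKM 1 in each. CG7011 had 14.6 and 15.9 FPKM in Red* eggs, against 15.6 and 14 FPKM in White* eggs, with limma's adjusted p of 0.754. The lncRNA genes CR45117 and CR45118 are hit in their promoters by the deletion in klar. In heads CR45117 had a mean of 3.85 FPKM in Red*, against 3.09 FPKM in White* and 2.29 FPKM in Fab2L. The means of CR45118 were 3.17 FPKM in Red* heads, 2.21 FPKM in White* heads and 2.7 FPKM in Fab2L heads. Neither lncRNA gene was called by limma in heads. Outside this group, the testis gene soti, with the insertion in its 5′ UTR, had at most 0.233 FPKM in any library.

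**Figure D5:**
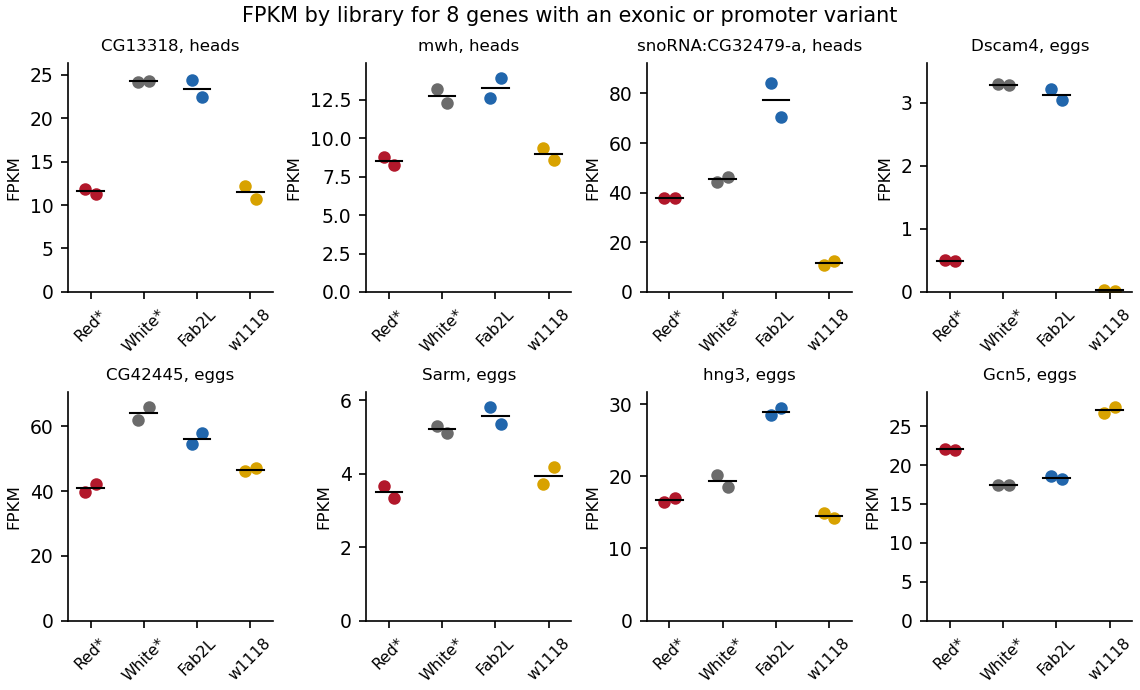
FPKM (y axis, linear from 0) of 8 genes with an exonic or promoter Red*-specific variant in each library of Red*, White*, Fab2L and w1118, in heads for CG13318, mwh and snoRNA:CG32479-a and in eggs for the others. Points are libraries and bars are means of 2 libraries. Red* lies below White* and Fab2L in every panel but that of Gcn5, where it lies above them.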

How the data were processed

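Variants were used as the authors deposited them. Per the submitters' processing notes genomic reads were handled with Bowtie2, Picard and SAMtools on dm6, and the caller, its settings and the rule for a line-specific position are not given in the sources used here. The authors deposited a quality score and 3 genotypes per SNP, and for deletions and insertions a count of reads with and without the change and a fraction of reads with it, which equals the first count over both within 0.005. Shares were computed from these counts with Wilson 95% intervals, which cover counting error only. Variants within 10 kb formed a cluster, and within 100 kb a run.

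For long RNA the authors deposited 1 FPKM value per gene and library, made with STAR 2.5 and DESeq2 per the submitters' processing notes. Since these are not counts, the planned edgeR test was replaced by limma 3.58.1 (R 4.3.3, trend) on log2(FPKM + 1). A gene entered where 2 or more of a tissue's 8 libraries passed an FPKM of 1. All 4 lines shared 1 fit, and calls are Benjamini-Hochberg adjusted p under 0.05. This scale understates changes of low genes. Reads were recovered for 16152 of 16157 genes with a value, whole within 0.001, as input to edgeR 4.0.16, an alternative added after the data were seen. Scripts were tested on simulated data. Nothing in the labels ties the 2 libraries of a line to separate cultures, so that p-values measure only a spread that may be technical. Red* egg libraries are numbered as in their titles, which disagree with the file labels.

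The variants and gene lists were chosen with earlier results of these data known. Named genes are those called with an exonic or promoter hit, up to 15 per comparison by size, those with an exonic deletion or insertion, those of the 5 largest clusters, the 5 with the most exonic hits, the 5 of highest FPKM per tissue, list genes with such a hit, and w. No genome was used, so that positions and bases are those of the deposited lists and the reference base was not checked.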

Additional observations from a re-analysis of the deposited data

Results flagged for a closer look

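The difference between Red* and White* was not the same in heads and eggs at 15 of 40 hit genes tested by limma's interaction of line and tissue (37.5%), beside 37.3% of all 6400 genes tested. Of the genes named by the rule it was called for 11, and each value is the log2 difference of Red* from White* in heads minus that in eggs, on the log2(FPKM + 1) scale. It was 1.50 for Dscam4 and 1.10 for snoRNA:CG32479-a, both lower in Red* than in White* in eggs. It was 0.62 for Bacc, 0.58 for Sarm, 0.52 for mnd, 0.50 for CG42445, 0.47 for Glut1 and 0.44 for CG42553, each with a lower mean in Red* eggs than in White* eggs, past the threshold for all but Glut1. It was −0.60 for BORCS6, −0.41 for Sf3b3 and −0.32 for CG11964, each of which was higher in Red* eggs. In heads none of the 11 was called between Red* and White*.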

How the results depend on the processing

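Of 43 pairs of a named hit gene and a comparison, 17 stayed called under every alternative, and of all values 338 kept their call, 116 lost it and none changed sign. In heads the Red* against White* count of all genes, 430, became 165 without the filter on low values, 118 with only the 2 lines compared, 650 with edgeR, and 22 to 590 without 1 library, and the 2 hit genes became 1, 1, 4 and 0 to 1. Against Fab2L the count of 250 became 135, 93 and 36 to 356 for no filter, 2 lines and 1 library left out, and 158 with crossed numbers. In eggs the 2953 against White* became 1119 to 2696 without 1 library, with 14 hit genes in place of 23 without the filter and 9 to 16 without 1 library. The 1586 against Fab2L became 664 with 2 lines and 349 to 1668 without 1 library, and the 18 hit genes 11 without the filter, 11 with 2 lines and 8 to 16 without 1 library. Clusters numbered 22 at 1 kb and 15 at 100 kb in place of 41, and of 168 SNPs 89 had a quality of at least 100 and 1 was 1/1 in all backgrounds. The labels do not state that numbers pair libraries, and deviations of same-numbered libraries correlated at 0.235 (Red* and White*) and −0.166 (Red* and Fab2L) in heads and −0.2 and −0.0617 in eggs. With a replicate block the counts were 250 and 125 of all genes in heads, with 1 hit gene against White*, and 3007 and 1671 in eggs, with 22 and 18 hit genes, and 2333 for the interaction. With Red* numbers crossed, 3153 genes and 23 hit genes were called in eggs against White*, and 2 hit genes in heads against Fab2L. With the block limma's adjusted p for mwh in heads was 0.0504 against White* and 0.0533 against Fab2L. Of the 43 calls, 16 were lost without the filter, 13 with only the 2 lines, 7 with quantile normalization, 4 with the block and 2 with edgeR, and each of these was also lost without at least 1 library. The location of variants from another annotation was not run, since the table used holds no exons. The cause of these changes was not tested.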

Other observations

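The genes with intronic Red* variants only were chosen here after their values were seen. In heads limma called none of 33 against Fab2L, beside 2.25% of all genes, and 1 of 33 against White* (3.03%), beside 3.87%. It was bol, a Boule-family RNA-binding protein gene of the male germline, with 48.6 and 40.7 FPKM in Red* heads, against 26.2 and 25.2 FPKM in White* heads, a difference of 0.77 with an adjusted p of 0.0293. The call was lost without Red* library 1, White* library 1 or White* library 2, with adjusted p of up to 0.168. Its insertion had 62.3% of reads in Oregon-R, 20.8% after 11 generations and 7.87% in Canton-S. In eggs limma called 5 of 16 in each comparison (31.2%), beside 44.2% of all genes against White* and 23.7% against Fab2L. Of these dpr6, a defective proboscis extension response family gene, had 2.11 and 2.01 FPKM in Red* eggs. It had 0.813 and 0.875 FPKM in White* eggs and 0.824 and 0.778 FPKM in Fab2L eggs. Its log2 difference was 0.73 against White* and 0.76 against Fab2L. Only its Red* libraries passed an FPKM of 1, so that dpr6 entered the test through the line where it was high. Its calls are therefore no support for a rise. The SNP of dpr6, A9999394G, was 1/1 in Canton-S alone.

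Of 18 genes tested that lie whole within the second run, 3 were called in heads against White* (16.7%), beside 3.87% of all genes. edgeR called 2 of the 18, but it also called more of all genes than limma did in this comparison. Within the longest run limma called 4 of 87 (4.6%), and within the third limma and edgeR called none of 32. In limma 6 of the 32 had an unadjusted p under 0.05, and the share of all genes at that threshold is not given here. In the second run CG13318 was 1. CCT7, a subunit of the cytosolic chaperonin, had 9.43 and 11.4 FPKM in Red* heads, against 17.9 and 19.1 FPKM in White* heads, and fell by 0.78, with limma's adjusted p of 0.0184. CG33189 had 8.8 and 9.01 FPKM in Red* heads, against 6.16 and 5.35 FPKM in White* heads, and rose by 0.55, with an adjusted p of 0.0313. Neither has an exonic or promoter variant in the lists. The call of CCT7 was lost without Red* library 1, White* library 1 or White* library 2, with adjusted p of up to 0.138, and that of CG33189 without any 1 library, with adjusted p of 0.0646 to 0.181.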
